A study of Mus musculus with 6 samples.

Results

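The 10 genes described here are Kit, Flt3, Cd34, Erg, Meis1, Lmo2, Hhex, Myb, Sox4 and Lef1, which are regulators and surface proteins of blood stem cells, progenitors and early B lineage cells. They were taken by name from the deposited expression table, 10 of 22098 gene names, and the transcript with the highest mean stood for each gene. They have 15 of the 26531 transcripts with values. A mean of at least 1 RPKM (reads per kilobase of transcript, scaled for the size of the library) over all libraries was required for testing, and 8 of the 10 genes passed, among 10322 genes in all. Cd34 and Meis1 did not pass, and their values are given without a call.

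The cells were IgM+ B-cells sorted from mouse bone marrow, which display their antigen receptor on the cell surface, and the RNA was poly(A)-enriched. The mice were C57BL/6, 6 weeks old, and were wild type, Ikaros_ZnF1-/- (ZnF1 mutant) or Ikaros_ZnF4-/- (ZnF4 mutant), with 2 libraries per genotype and 6 in all. Ikaros, the product of Ikzf1, is a DNA-binding protein with zinc fingers that lymphocytes need, and the mutants are named for its fingers 1 and 4. The labels do not say whether the libraries of a genotype came from separate animals. Sex-linked genes differ between the libraries of each mutant, which are thus not 2 libraries of 1 animal. For wild type these genes do not show this. Its libraries differed in plasma cell markers, with 5 of them summing to 538.4 and 59.0 RPKM. Whether its spread is one between animals is not known.

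Blood progenitors carry the receptor tyrosine kinases Kit and Flt3, whose ligands support their survival and growth, and a network of transcription factors that includes Erg, Meis1, Lmo2 and Myb. Most of these genes are turned down as B lineage cells mature: Kit and Flt3 mark early progenitors and pro-B cells, whereas an IgM+ B-cell has completed rearrangement of its antigen receptor genes. Ikaros is known to bind many genes of this programme in B cell precursors.

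In these cells the 10 genes spanned a wide range of levels. On the RPKM scale, which is per length, the means over the 6 libraries were 96.2 for Lmo2, 64.8 for Hhex, 49.5 for Myb, 13.6 for Sox4, 8.08 for Lef1, 2.88 for Kit, 2.03 for Erg, 1.30 for Flt3, 0.917 for Meis1 and 0.733 for Cd34. Taken over all libraries, each neighbouring pair in this order overlapped, except that every Myb library (30.5 or more) lay above every Sox4 library (17.4 or less). Within each of the 6 libraries, Lmo2 was also above Hhex, and Sox4 above Lef1. Lmo2 was higher than 96.1% of the tested genes, while Flt3 was higher than 3.40% of them.

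**Figure D1:**
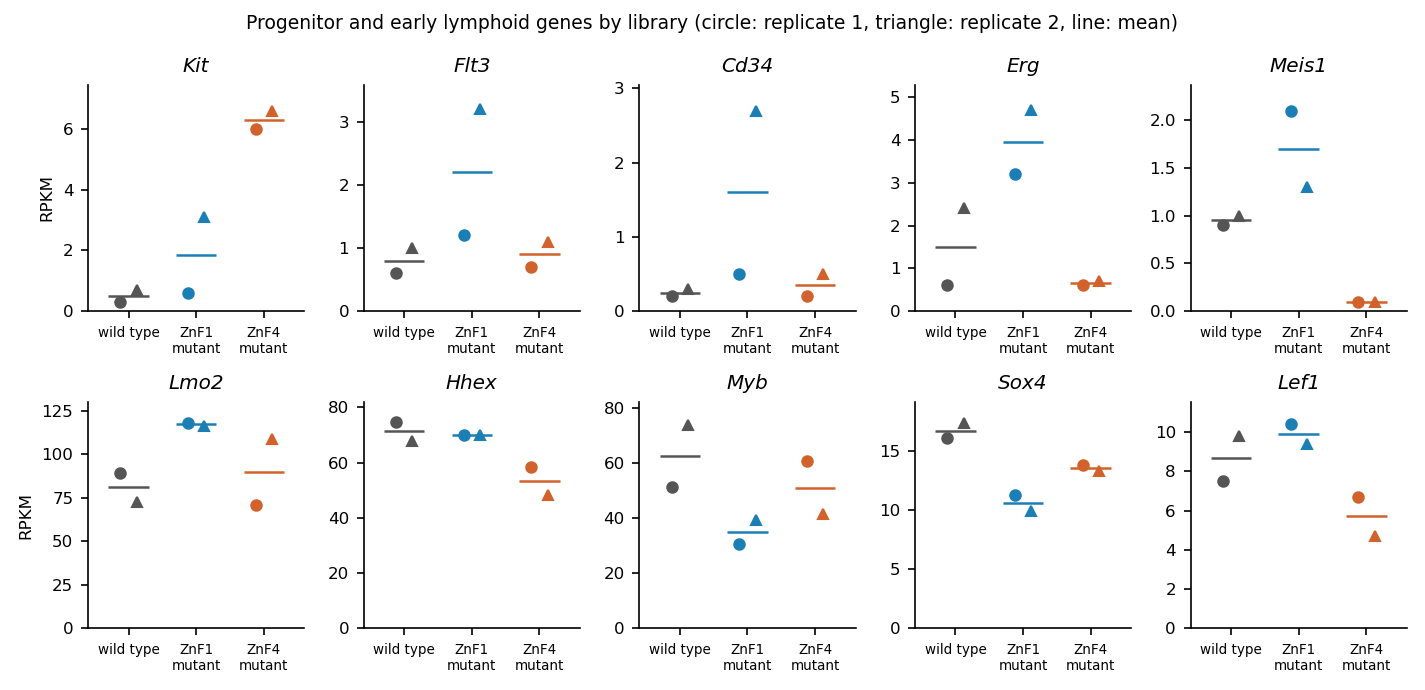
RPKM (vertical axes, linear, each gene on its own scale) of the 10 genes in the 6 libraries by genotype. Points are libraries and horizontal lines are means of 2; Kit stands at 6.0 and 6.6 in the ZnF4 mutant against 0.3 and 0.7 in wild type, and Meis1 at 0.1 in both ZnF4 libraries.

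Kit, the receptor for stem cell factor, was the one gene of the 8 that passed the test, and it did so in the ZnF4 mutant. Its level was 0.3 and 0.7 RPKM in wild type, 0.6 and 3.1 in ZnF1 and 6.0 and 6.6 in ZnF4. Both ZnF4 libraries lay above the other 4, while the ZnF1 libraries differed from each other, one lying among the wild-type values. Mean levels were 0.50 ± 0.283, 1.85 ± 1.77 and 6.30 ± 0.424 RPKM (SD, n = 2 each). On the log2(RPKM + 0.5) scale, which makes changes of low genes smaller, Kit rose by 2.79 in the ZnF4 mutant (SE 0.52, 95% interval 1.59 to 4.0, adjusted p = 0.0361, limma). The difference was 1.02 in the ZnF1 mutant (interval -0.18 to 2.23, adjusted p = 0.511), and 1.77 between the mutants, ZnF4 minus ZnF1 (interval 0.57 to 2.98, adjusted p = 0.109). A larger change in the ZnF4 than in the ZnF1 mutant was therefore not called.

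The Kit call in the ZnF4 mutant was lost under 7 of 17 alternatives, and its direction held in all 17 (2.29 to 3.50). It was lost without wild-type replicate 1 (adjusted p = 0.234) or 2 (0.173), without ZnF4 replicate 1 (0.229) or 2 (0.314), with no filter (0.288), with no intensity trend (0.0501) and with a term for sex (0.0851). Leaving out a library leaves 1 in its genotype, which the fit then takes to vary as the other genotypes do. Without ZnF1 replicate 2, Kit was 2.63 higher in the ZnF4 than in the ZnF1 mutant, with an adjusted p of 0.00709, and 0.17 higher in the ZnF1 mutant than in wild type.

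The level of Kit came almost wholly from one of its transcripts. The table holds 2, NM_001122733 with 5202 bases and NM_021099 with 5186, and the second was listed at 0 in wild type and the ZnF1 mutant and at 0.2 in both ZnF4 libraries. The transcript of the higher row has a coding stretch of 12 bases in exon 9 that the other lacks, at chr5:75639147-75639158 of GRCm38, plus strand. The listed lengths differ by more than 12 bases, so this stretch is not the only difference between the rows. It is shown as a coding difference between them, in capitals with 15 bases on either side:
Kit: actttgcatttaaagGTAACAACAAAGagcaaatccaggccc
How the authors divided reads between transcripts that share nearly all their sequence is not given in the sources used here, so the split between these rows is uncertain.

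Markers of other marrow cells, among them mast cells, which carry Kit, differed between the libraries too. The summed level of 12 mast cell and basophil markers was 4.0 and 6.1 RPKM in wild type, 19.0 and 120.7 in ZnF1 and 23.4 and 31.8 in ZnF4. Of these 12, 7 were higher in the ZnF4 mutant and 8 in the ZnF1 mutant without overlap with wild type. Cpa3, a protease of mast cells and basophils, was at 0.1 and 0.1 RPKM in wild type, 0.6 and 5.0 in ZnF1 and 1.6 and 2.0 in ZnF4. Mcpt8 and Prss34, proteases of basophils, were at 0.8 to 2.3 in wild type, 5.3 to 46.3 in ZnF1 and 5.7 to 14.6 in ZnF4. Mcpt4, Tpsab1 and Cma1, further mast cell proteases, were listed at 0 in all 6 libraries. For 20 granulocyte and monocyte markers the sums were 497.5 and 782.6 in wild type, 1537.1 and 8247.3 in ZnF1 and 1900.7 and 2090.4 in ZnF4. Of these 20, 17 were higher in the ZnF4 mutant and 19 in the ZnF1 mutant without overlap. Over all tested genes, 23.1% were higher in the ZnF4 mutant and 21.1% in the ZnF1 mutant without overlap. Only 4 of the 12 mast cell and basophil markers and 19 of the 20 others were tested. Of these tested markers limma called 0 in any comparison. Both lists were highest in ZnF1 replicate 2, where Kit, at 3.1 RPKM, was below both ZnF4 libraries. The part of these cells in the level of Kit was not tested. In bulk RNA, fewer cells of a type and less RNA per cell cannot be told apart.

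**Figure D2:**
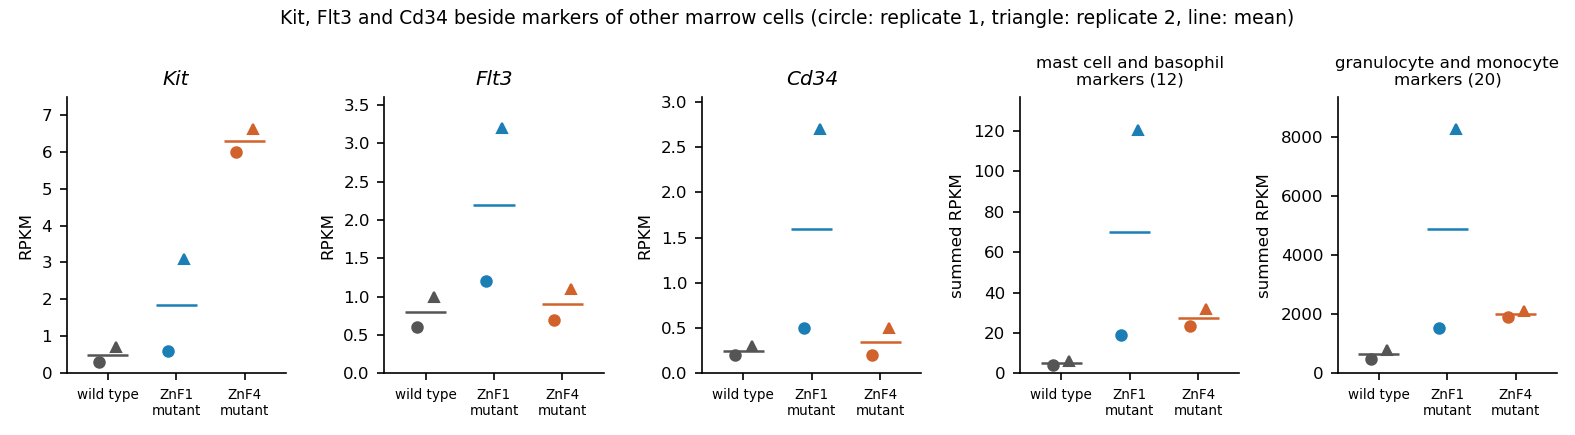
RPKM of Kit, Flt3 and Cd34 beside the summed RPKM of 12 mast cell and basophil markers and of 20 granulocyte and monocyte markers (linear vertical axes), by genotype. Points are libraries and lines are means of 2; ZnF1 replicate 2 is highest for both marker sums, Flt3 and Cd34, and the ZnF4 libraries are highest for Kit.

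B cell markers were present in every library: 11 of them summed to between 5351.6 and 6642.0 RPKM, none of them listed at 0. These 11 hold no IgM gene, so they do not check the IgM label. In ZnF1 replicate 2 the granulocyte and monocyte sum, 8247.3 RPKM, was above the B cell sum, 5619.1. The sums ranged from 101.0 to 558.1 for 15 erythroid and megakaryocyte markers, from 117.2 to 181.3 for 12 T cell markers, from 3.6 to 24.9 for 8 NK cell markers, from 69.0 to 106.0 for 11 endothelial and stromal markers, from 59.0 to 538.4 for 5 plasma cell markers, and from 1132.8 to 1614.5 for 11 dendritic cell markers, a sum made up mostly of Ly6d, which early B lineage cells also express. The T cell sum was mostly Cd2 and Lck. Within it Cd4 rose in the ZnF1 mutant, from 0.6 and 0.9 RPKM to 4.2 and 4.5 (1.97, adjusted p = 0.0347, limma). With a sex term or the 2 genotypes alone, limma called 0 of all genes higher there, so this call was lost. The untested Cd8a was at 0.2 in both wild-type libraries, 1.2 and 1.5 in ZnF1, and 0.1 and 0.2 in ZnF4. Of the 5 tested T cell markers, 2 were higher and 3 lower in the ZnF1 mutant. Lck differed by -0.51, Cd2 by -0.39 and Zap70 by -0.18, and none of these was called. Cd3e, Cd3d and Cd3g were at 0.8 RPKM or less throughout. The erythroid and NK sums were highest in ZnF1 replicate 2, and the plasma cell sum in wild-type replicate 1. Sdc1, of the plasma cell list, was called lower in the ZnF1 mutant (-2.24, adjusted p = 0.0347, limma), a call lost with a sex term. In the ZnF4 mutant the dendritic cell list held Cd209a higher (2.18, adjusted p = 0.00832) and Cox6a2 lower (-2.49, adjusted p = 0.0353), by limma. Cd209a passed the filter only through the ZnF4 libraries. Between the mutants Cd4 was called lower and Cd209a higher in ZnF4. The ZnF1 libraries differed by more than 2-fold in 4.46% of tested genes, while 1.09% did so in wild type and 0.698% in ZnF4. Xist, transcribed in females, was at 0 and Ddx3y, a Y-linked gene, was at 20.4 and 16.6 RPKM in replicate 2 of the ZnF1 and of the ZnF4 mutant, while Ddx3y was at 0 in the other 4 libraries. Sex therefore differs within each mutant and not within wild type. Ikzf1 itself was at 176.5 and 178.6 RPKM in wild type, 201.1 and 168.4 for ZnF1 and 287.3 and 244.0 for ZnF4, and a level over the whole transcript does not check the loss of a finger.

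Flt3 and Cd34, further surface proteins of progenitors, were low throughout and stood highest in 1 library. Flt3, the receptor for Flt3 ligand, was at 0.6 and 1.0 RPKM in wild type, 1.2 and 3.2 in ZnF1 and 0.7 and 1.1 in ZnF4. The ZnF1 libraries lay above wild type, and ZnF4 overlapped wild type. Flt3 passed the filter only through the ZnF1 mutant, since the other 4 libraries average 0.85 RPKM, so its height there is a description. The fitted difference was 0.97 in the ZnF1 mutant (interval 0.00083 to 1.93, adjusted p = 0.418) and 0.11 in the ZnF4 mutant (interval -0.86 to 1.07, adjusted p = 0.923). Without ZnF1 replicate 2, the ZnF1 difference was 0.40.

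Cd34, a sialomucin of stem cells and endothelium, was at 0.2 and 0.3 RPKM in wild type, 0.5 and 2.7 in ZnF1 and 0.2 and 0.5 in ZnF4. ZnF1 replicate 2 stood apart from the other 5 libraries, in the second transcript of the gene too, which was at 1.4 there and at 0.1 to 0.4 elsewhere. With no filter on low values, the difference was 1.26 in the ZnF1 mutant (adjusted p = 0.907) and 0.16 in the ZnF4 mutant (adjusted p = 1). In ZnF1 replicate 2, the granulocyte and monocyte markers, the mast cell and basophil markers, Flt3 and Cd34 were all at their highest, and a part of those cells in the values of Flt3 and Cd34 was not tested.

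Erg and Meis1, transcription factors of stem cells and early progenitors, were higher in the ZnF1 mutant than in the ZnF4 mutant in every library, although neither difference was called. Erg, an ETS family factor, was at 0.6 and 2.4 RPKM in wild type, 3.2 and 4.7 in ZnF1 and 0.6 and 0.7 in ZnF4. The wild-type libraries were 4 times apart, one level with the ZnF4 mutant and the other between the mutants. Means were 1.5 ± 1.27, 3.95 ± 1.06 and 0.65 ± 0.0707 RPKM (SD, n = 2). Against wild type, the difference was 1.30 in the ZnF1 mutant (interval 0.26 to 2.34, adjusted p = 0.311) and -0.64 in the ZnF4 mutant (interval -1.68 to 0.40, adjusted p = 0.503). The direct difference, ZnF4 minus ZnF1, was -1.93 (SE 0.44, interval -2.97 to -0.89, adjusted p = 0.0569), and over 17 alternatives it ran from -2.41 to -1.57 with 6 of them past the threshold. Without ZnF1 replicate 2 it was -1.69 (adjusted p = 0.145).

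Meis1, a homeodomain partner of Hox proteins, was at 0.9 and 1.0 RPKM in wild type, 2.1 and 1.3 in the ZnF1 mutant and 0.1 in both ZnF4 libraries. The mutants lay on opposite sides of wild type with no overlap. A level of 0.1 is the smallest step the table can show above 0, so the value in the ZnF4 mutant is at the limit of the rounding. With no filter and 22098 names tested, the difference was 0.58 in the ZnF1 mutant (adjusted p = 0.744), -1.27 in the ZnF4 mutant (interval -1.88 to -0.67, adjusted p = 0.162), and -1.85 between the mutants (interval -2.46 to -1.24, adjusted p = 0.0718). None of these was called.

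The regions around the starts of Kit, Erg and Meis1 are printed because these genes have the widest differences between the genotypes, and Ikaros binds sites with the core GGGAA. Each is 300 bases long, 250 before and 50 after the start of transcription, from RefSeq on GRCm38.p6, at the listed start nearest to that of the transcript used. Capitals mark GGGAA or its reverse complement TTCCC, searched on both strands. Kit lies at chr5:75574737-75575036 on the plus strand, Erg at chr16:95530316-95530615 on the minus strand and Meis1 at chr11:19018920-19019219 on the minus strand.
Kit: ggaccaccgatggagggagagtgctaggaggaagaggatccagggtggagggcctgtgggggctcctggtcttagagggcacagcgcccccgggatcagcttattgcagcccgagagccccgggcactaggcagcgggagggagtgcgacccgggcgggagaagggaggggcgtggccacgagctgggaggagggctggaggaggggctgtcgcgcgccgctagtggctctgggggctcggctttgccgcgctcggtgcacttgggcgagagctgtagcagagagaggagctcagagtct
Erg: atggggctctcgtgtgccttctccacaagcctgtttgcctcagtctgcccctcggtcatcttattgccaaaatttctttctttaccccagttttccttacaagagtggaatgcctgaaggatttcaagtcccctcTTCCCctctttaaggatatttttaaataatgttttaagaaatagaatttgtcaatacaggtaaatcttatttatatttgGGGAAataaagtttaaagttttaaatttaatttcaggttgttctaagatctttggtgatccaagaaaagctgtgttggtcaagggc
Meis1: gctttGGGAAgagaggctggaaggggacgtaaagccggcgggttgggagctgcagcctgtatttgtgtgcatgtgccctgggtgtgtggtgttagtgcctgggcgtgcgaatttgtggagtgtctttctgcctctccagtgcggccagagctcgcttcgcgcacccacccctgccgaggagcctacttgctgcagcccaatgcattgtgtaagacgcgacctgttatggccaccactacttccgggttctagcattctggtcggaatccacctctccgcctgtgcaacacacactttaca
Kit had 0 matches, Erg 2, at 115 and 36 bases before the start, and Meis1 1, at 245 bases before it. Of the 9 genes with a sequence in the table, 6 held at least 1 match, which are Flt3, Erg, Meis1, Hhex, Sox4 and Lef1, beside 62.7% of 32851 promoters of the same length. A match is only a description of these letters, and Lmo2 is named only.

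Lmo2 and Hhex were high in all 6 libraries. Lmo2, a LIM-only bridging protein of blood progenitor complexes, was at 89.5 and 72.7 RPKM in wild type, 118.2 and 116.5 in ZnF1 and 71.0 and 109.0 in ZnF4. Both ZnF1 libraries lay above the other 4, and the ZnF4 libraries spanned the wild-type values. The difference was 0.54 in the ZnF1 mutant (interval 0.04 to 1.03, adjusted p = 0.378) and 0.12 in the ZnF4 mutant (interval -0.37 to 0.62, adjusted p = 0.809). Nearly all of its reads were on 1 of 4 listed transcripts, and the other 3 reached at most 1.2 RPKM.

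Hhex, a homeodomain factor that lymphoid progenitors need, was at 74.6 and 67.9 RPKM in wild type, 70.1 and 69.8 in ZnF1 and 58.2 and 48.4 in ZnF4. Wild type and ZnF1 overlapped, while both ZnF4 libraries were lower than the other 4. The difference was -0.02 in the ZnF1 mutant (interval -0.34 to 0.29, adjusted p = 0.973) and -0.42 in the ZnF4 mutant (interval -0.73 to -0.11, adjusted p = 0.160). The ZnF1 interval is narrow compared with those of Kit or Erg, and the ZnF4 difference did not pass.

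Myb, Sox4 and Lef1 act in lymphoid precursors. Myb, needed for pro-B cell development, was at 51.3 and 73.9 RPKM in wild type, 30.5 and 39.2 in ZnF1 and 60.5 and 41.6 in ZnF4. Both ZnF1 libraries and 1 ZnF4 library lay below both wild-type ones. The difference was -0.82 in the ZnF1 mutant (interval -1.39 to -0.26, adjusted p = 0.242) and -0.29 in the ZnF4 mutant (interval -0.86 to 0.27, adjusted p = 0.580).

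Sox4, an HMG box factor of pro-B cells, was at 16.1 and 17.4 RPKM in wild type, 11.3 and 9.9 in ZnF1 and 13.8 and 13.3 in ZnF4. The genotypes did not overlap, with wild type highest and ZnF1 lowest. The difference was -0.64 in the ZnF1 mutant (interval -0.94 to -0.33, adjusted p = 0.122) and -0.30 in the ZnF4 mutant (interval -0.60 to 0.0088, adjusted p = 0.300). Between the mutants it was 0.34 (adjusted p = 0.195).

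Lef1, an HMG box factor that acts with beta-catenin, was at 7.5 and 9.8 RPKM in wild type, 10.4 and 9.4 in ZnF1 and 6.7 and 4.7 in ZnF4. Both ZnF4 libraries were below the other 4, and wild type overlapped ZnF1. The difference was 0.19 in the ZnF1 mutant (interval -0.29 to 0.68, adjusted p = 0.786), -0.57 in the ZnF4 mutant (interval -1.05 to -0.088, adjusted p = 0.212) and -0.76 between the mutants (interval -1.24 to -0.28, adjusted p = 0.0858).

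**Figure D3:**
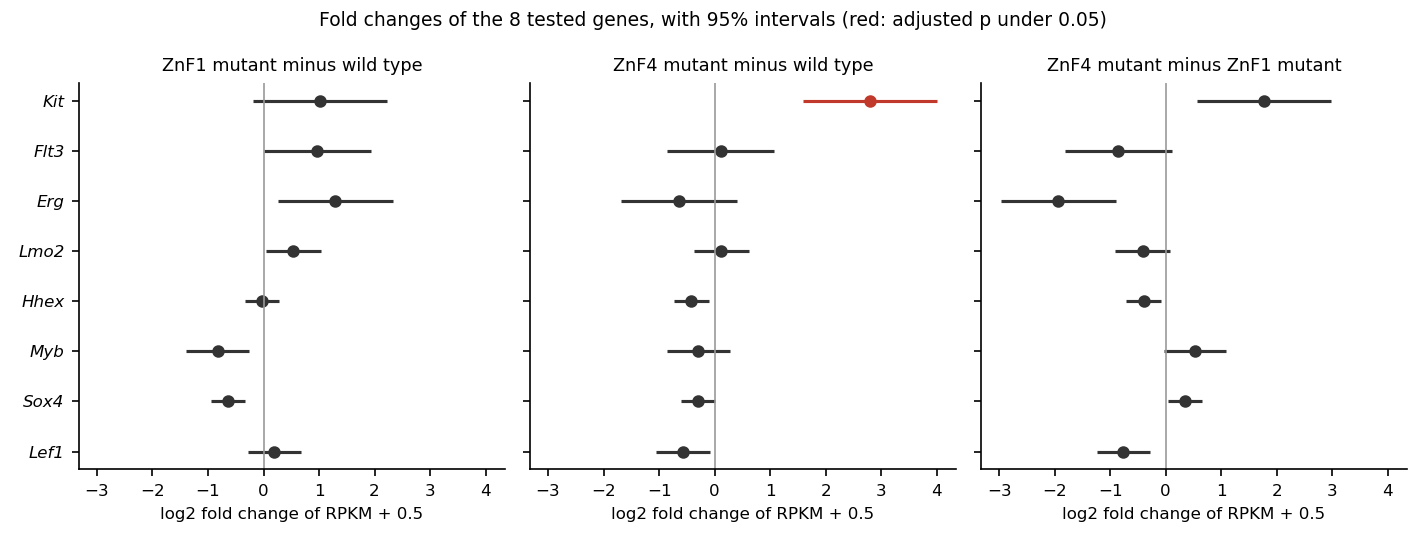
Log2 fold changes of RPKM + 0.5 (horizontal axes) with 95% intervals for the 8 tested genes in the 3 comparisons, from the limma fit to all 6 libraries. Kit in the ZnF4 mutant, at 2.79, is the one value with an adjusted p under 0.05, drawn in red.

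The calls among the 8 stand beside those over all tested genes. In the ZnF1 mutant, limma called 0 of the 8 higher and 0 lower, where it called 0.0969% of tested genes higher and 0.174% lower. There 5 of the 8 had an unadjusted p under 0.05, beside 11.9% of tested genes. Flt3 is 1 of these 5 and passed the filter only through the ZnF1 mutant, so its place in the count is a description. In the ZnF4 mutant it called 1 higher and 0 lower, where 1.78% and 1.41% of tested genes were called, and 3 of the 8 had an unadjusted p under 0.05, beside 17.4% of tested genes. Between the mutants it called 0 in either direction, where 2.69% of tested genes were called higher in the ZnF4 mutant and 2.08% lower, and 5 of the 8 had an unadjusted p under 0.05, beside 20% of tested genes. The same shares of all genes stand behind the calls and the unadjusted counts of the lists that follow.

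Libraries that did not overlap were more frequent than calls, in these genes and in all genes. In the ZnF1 mutant, 3 of the 8 were higher than wild type without overlap (Flt3, Erg and Lmo2) and 2 lower (Myb and Sox4), where 21.1% and 20.3% of tested genes were; Flt3 had to be high in ZnF1 to be tested at all. In the ZnF4 mutant, 1 was higher (Kit) and 3 lower (Hhex, Sox4 and Lef1), where 23.1% and 27.2% were. Of ZnF4 against ZnF1, 3 were higher (Kit, Myb and Sox4) and 5 lower (Flt3, Erg, Lmo2, Hhex and Lef1), where 21.0% and 25.8% were. The limit on Flt3 holds for this count and for the medians too. Median differences of the 8 were 0.37, -0.29 and -0.40, beside -0.0019, -0.02 and -0.03 for all tested genes; these 8 are the members that passed the filter and not all 10. The comparisons of ZnF1 and of ZnF4 with wild type share their 2 control libraries.

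By the likeness of the profile over the 6 libraries, the tested genes nearest to Kit were Mir1903, App and Cd300c. The measure was the root mean square difference of log2(RPKM + 0.5) after the mean of each gene was subtracted, and it was 0.265, 0.322 and 0.338. App, the amyloid precursor protein, was at 2.2 and 2.7 RPKM in wild type, 4.0 and 12.3 in ZnF1 and 15.4 and 14.9 in ZnF4. Cd300c was at 0.3 and 1.0, 1.6 and 2.9, and 8.9 and 8.3 in the same order. Mir1903, a microRNA entry, was at 0 and 0.4, 0.7 and 1.8, and 4.2 and 4.6. All 3 were highest in the ZnF4 libraries and next highest in ZnF1 replicate 2, as Kit was. They were picked for this likeness over the same libraries, so the shared order follows from the choice and is no result. Mir1903 averaged under 1 RPKM outside the ZnF4 libraries and passed the filter only through them.

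Among 31 genes of early lymphoid, pro-B and pre-B cells, a list that overlaps no member, 26 were tested and the ZnF4 mutant held calls in both directions. There, 2 rose (Igll1 and Vpreb1) and 6 fell (Il2ra, Rag1, Sfpi1, Bst1, Cd24a and Foxo1), where 1.78% and 1.41% of tested genes were called. The median was -0.36 beside -0.02 for all tested genes, and 16 of the 26 had an unadjusted p under 0.05. In the ZnF1 mutant limma called 0 of 26, with 11 at an unadjusted p under 0.05 and a median of -0.26. Between the mutants 2 were called higher in ZnF4 (Igll1 and Vpreb1) and 4 lower (Dntt, Rag1, Sfpi1 and Satb1), where 2.69% and 2.08% of tested genes were. For that comparison 12 of the 26 had an unadjusted p under 0.05, with a median of 0.07.

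Igll1 and Vpreb1 encode proteins that stand in for a light chain in the pre-B cell receptor. Igll1 was at 5.7 and 13.7 RPKM in wild type, 18.5 and 28.6 in ZnF1 and 130.4 and 121.3 in ZnF4, a rise of 3.75 in the ZnF4 mutant (adjusted p = 0.00549). Vpreb1 was at 1.9 and 3.8, 6.1 and 4.2, and 25.9 and 14.6 in the same order, a rise of 2.64 (adjusted p = 0.0116). Both genes, like Kit, were highest in the 2 ZnF4 libraries. Vpreb2, on the same list but too low to be tested, went the other way. Its RPKM values were lowest for ZnF4, with 0.1 in each library, then 0.6 in each wild-type library, then 1.8 and 2.1 for ZnF1. Vpreb3 ranged from 406.5 to 611.7 RPKM and was called in no comparison, with a ZnF4 difference from wild type of -0.11 (adjusted p = 0.818, limma).

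Rag1 and Dntt, which act in the rearrangement of antigen receptor genes, were lowest in the ZnF4 libraries. Rag1 was at 14.5 and 17.6 RPKM in wild type, 12.3 and 9.2 in ZnF1 and 4.4 and 2.2 in ZnF4, and fell by 2.18 in the ZnF4 mutant (adjusted p = 0.0109). Dntt was at 2.1 and 11.1, 13.5 and 17.7, and 0.2 and 0.3 in the same order, with a difference of -4.41 between the mutants (adjusted p = 0.00945). Its difference from wild type in the ZnF4 mutant was -2.88 (adjusted p = 0.0514), with wild-type libraries far apart, as those of Erg were.

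Il2ra, a receptor chain found on pre-B cells, was at 9.9 and 13.1 RPKM in wild type, 5.8 and 3.3 in ZnF1 and 2.2 and 1.5 in ZnF4, and fell by 2.36 in the ZnF4 mutant (adjusted p = 0.00832). Sfpi1, which encodes the ETS factor PU.1, was at 78.3 and 78.8, 76.8 and 80.8, and 45.6 and 44.7 in the same order, and fell by 0.79 in the ZnF4 mutant (adjusted p = 0.0133). The counts of this list depended on single libraries: leaving out 1 wild-type or ZnF4 library left 0 or 1 gene higher and 0 or 1 lower in the ZnF4 mutant. With no filter, the ZnF4 calls of Igll1, Vpreb1, Rag1 and Il2ra were lost as well (adjusted p from 0.109 to 0.181).

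**Figure D4:**
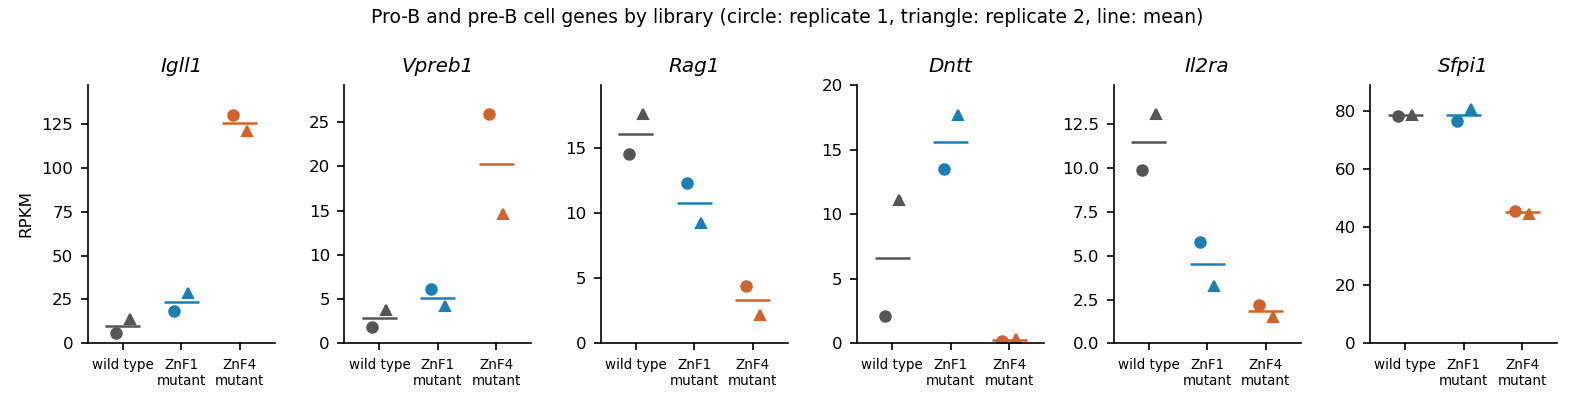
RPKM (linear vertical axes, each gene on its own scale) of 6 genes of the early lymphoid, pro-B and pre-B list in the 6 libraries by genotype. Points are libraries and lines are means of 2; Igll1 and Vpreb1 are highest, and Rag1, Dntt, Il2ra and Sfpi1 lowest, in the ZnF4 libraries.

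Other regulators of stem cells and progenitors were without calls. Of 28 such genes 13 were tested, and limma called 0 in any comparison (1, 3 and 0 at an unadjusted p under 0.05 for ZnF1, ZnF4 and the direct comparison), with medians of -0.08, -0.06 and 0.04. Etv6, an ETS family repressor, was at 8.4 and 8.1 RPKM in wild type, 9.5 and 12.7 in ZnF1 and 15.3 and 13.0 in ZnF4, a difference of 0.74 in the ZnF4 mutant (adjusted p = 0.0745). Gfi1, a zinc finger repressor, was at 7.1 and 7.4, 3.8 and 4.9, and 4.8 and 4.1, a difference of -0.69 in the ZnF1 mutant (adjusted p = 0.204) and of -0.65 in the ZnF4 mutant (adjusted p = 0.113). Mecom, Hoxa10, Tek and Hmga2 were listed at 0 in all 6 libraries. Gata2, a factor of progenitors and mast cells, reached 2.8 RPKM in ZnF1 replicate 2, with the other 5 libraries at 0.4 or less.

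Signalling partners of Kit and Flt3 were also without calls. Of 18 genes for ligands and signalling 17 were tested, and limma called 0 in any comparison (3, 2 and 2 at an unadjusted p under 0.05), with medians of 0.04, -0.10 and -0.07. Stat5b, a signal transducer downstream of these receptors, was at 24.2 and 23.1 RPKM in wild type, 20.2 and 18.1 in ZnF1 and 18.6 and 18.7 in ZnF4, with differences of -0.30 (adjusted p = 0.385) and -0.33 (adjusted p = 0.204). Stat3, of the same family, was between 42.8 and 63.1 RPKM, with its largest difference between the mutants (-0.39, adjusted p = 0.154). Flt3l, the ligand of Flt3, was between 16.5 and 20.7 RPKM, and Kitl, the ligand of Kit, between 0 and 0.2. For the Lef1 family and its Wnt partners, 14 of 18 were tested and 0 called (1, 2 and 4 at an unadjusted p under 0.05), with medians of 0.11, -0.06 and -0.18. Ctnnb1, which encodes beta-catenin, was at 112.8 and 103.3 RPKM in wild type, 135.9 and 123.9 in ZnF1 and 93.2 and 98.5 in ZnF4. Like Lef1, it was lower in both ZnF4 libraries than in both ZnF1 libraries (-0.44, adjusted p = 0.107). Tle1, a corepressor, was between 1.0 and 2.4 RPKM, 0.76 higher in the ZnF4 than in the ZnF1 mutant (adjusted p = 0.136). Tcf7, a relative of Lef1, was between 1.0 and 2.0 RPKM.

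Among 22 paralogues and complex partners of the other members, 13 were tested. Ets2, a relative of Erg, was at 9.6 and 11.7 RPKM in wild type, 3.8 and 3.8 in ZnF1 and 2.8 and 3.1 in ZnF4, and fell by 1.37 in the ZnF1 mutant (adjusted p = 0.0347) and fell by 1.69 in the ZnF4 mutant (adjusted p = 0.00549). Lmo4, a relative of Lmo2, was at 50 and 60.0, 21.4 and 26.6, and 44.2 and 48.6, and fell by 1.18 in the ZnF1 mutant (adjusted p = 0.0393). In the direct comparison Lmo4 was 0.94 higher in the ZnF4 mutant and was called. These were the only calls in the list, which gives 0 higher and 2 lower in the ZnF1 mutant, 0 higher and 1 lower in the ZnF4 mutant and 1 higher between the mutants, with medians of 0.008, -0.19 and -0.14. The ZnF1 calls were lost under 8 of 18 alternatives for Ets2 (adjusted p from 0.0972 to 0.294) and 11 of 18 for Lmo4 (adjusted p from 0.0586 to 0.338), in each case when any library other than ZnF1 replicate 1 was left out. The ZnF4 call of Ets2 was lost without either wild-type library or either ZnF4 library (adjusted p from 0.0589 to 0.109). The directions held under all 18.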

How the data were processed

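The authors deposited one table of RPKM values per RefSeq transcript, rounded to steps of 0.1, with transcript lengths in a further column. Mapping was to mm9 and used TopHat and bedtools, per the submitters' processing notes; their versions, the read total used for scaling, strand and the sharing of reads among transcripts are not given in the sources used here. Library depth is therefore unknown, and no counting interval is given. All 6 value columns were used, and 0 were left out; 1 table row had no values.

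Each gene name was represented by its transcript with the highest mean, and names with a mean of at least 1 RPKM over 6 libraries were tested. On log2(RPKM + 0.5), limma 3.58.1 in R 4.3.3 (lmFit, eBayes with an intensity trend) was fitted with 1 coefficient per genotype, leaving 3 residual degrees of freedom. Tests are two-sided, p-values were adjusted over all tested genes by the Benjamini-Hochberg method, with 0.05 as the threshold on the adjusted p for a call. An exact permutation test of 2 against 2 libraries cannot go below p = 0.333. The fit was tested on simulated data. Members and lists were chosen with earlier results of these data known. All 10 members are named; of each list, at most 6 called genes were named, by smallest p, and a list with no call gave values for at most 2 genes. Genes at or near 0 and ligands were named after their values were seen. So were Bst1, Cd24a, Foxo1, Satb1, Tcf7, Vpreb2, Vpreb3 and the single T cell, plasma cell and dendritic cell markers. Promoters came from RefSeq on GRCm38.p6, and the Kit stretch from transcripts on GRCm38; no coordinate was carried over from mm9. Alternatives were other pseudocounts, filters, normalization, a sex term, a replicate block, 2 genotypes alone and leaving out each library.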

Additional observations from a re-analysis of the deposited data

Results flagged for a closer look

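The effects of the mutants differed in the direct comparison, ZnF4 minus ZnF1, for 6 of the list genes named by the rule, each with an adjusted p under 0.05 from limma. The difference was 2.42 for Igll1 (adjusted p = 0.0153), 1.84 for Vpreb1 (adjusted p = 0.0325) and 0.94 for Lmo4. It was -1.62 for Rag1 (adjusted p = 0.0247), -4.41 for Dntt (adjusted p = 0.00945) and -0.80 for Sfpi1 (adjusted p = 0.0108). All 6 calls were lost without ZnF4 replicate 1 and without ZnF4 replicate 2, for example Igll1 (adjusted p = 0.178 and 0.164), Dntt (0.162 and 0.141) and Lmo4 (0.151 and 0.170). With no filter all but that of Sfpi1 were lost. Those of Vpreb1 and Rag1 were also lost with the 2 genotypes alone (adjusted p = 0.0504 and 0.0710). The directions held throughout. Among the 10 members, Meis1 stood out because both ZnF1 libraries lay above wild type and both ZnF4 libraries below it. Its difference between the mutants was -1.85 with no filter on low values, and the test of that difference did not pass (adjusted p = 0.0718).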

How the results depend on the processing

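Over 420 fitted values of the 8 genes under alternatives, 409 kept their direction, and 391 kept both direction and call. Reversed values were small. For Hhex in the ZnF1 mutant they were 0.0056 with quantile normalization and 0.0426 with a sex term, and leaving out 1 library gave -0.0922 to 0.0426 (above 0 without wild-type replicate 1). For Flt3 in the ZnF4 mutant they were -0.14 (quantile), -0.27 (sex term), -0.11 (without wild-type replicate 1) and -0.10 (without ZnF4 replicate 2), in a range up to 0.33 when 1 library was left out. For Erg in the ZnF4 mutant the range when 1 library was left out was -1.34 to 0.0628, above 0 without wild-type replicate 2. For Lmo2 in the ZnF4 mutant they were -0.024 (sex term), -0.02 (without wild-type replicate 2) and -0.18 (without ZnF4 replicate 2), in a range up to 0.43 when 1 library was left out. The cause was not tested.

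The Kit call in the ZnF4 mutant gave way to 0 with no filter, with a filter at a mean of 3, where Kit was not tested, with no trend and with a sex term. Leaving out 1 library gave 0 to 1 member called higher there and 0 lower, 0 to 2 higher and 0 to 1 lower in the ZnF1 mutant, and 0 to 1 higher and 0 to 2 lower between the mutants. Without ZnF1 replicate 1, the ZnF1 mutant is replicate 2 alone, taken to vary as the other genotypes do. This library has the highest granulocyte (8247.3 RPKM) and mast cell (120.7 RPKM) marker sums. The fit without ZnF1 replicate 1 called Kit (1.88) and Flt3 (1.53) higher and Sox4 (-0.73) lower in ZnF1 than in wild type. It called Flt3 (-1.42) and Erg (-2.18) lower in ZnF4 than in ZnF1. Between the mutants, quantile normalization and the 2 genotypes alone each called 1 lower. Where leaving out 1 library gave 0 calls for all genes, between 271 and 944 genes still had an unadjusted p under 0.05 in that direction.

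Deviations of same-numbered libraries correlated at 0.28 for wild type with ZnF1, 0.208 for ZnF1 with ZnF4 and -0.0327 for wild type with ZnF4, so not every pair of genotypes deviated together and the numbers were not taken to pair samples. With a replicate block, 1 member was called lower between the mutants (Erg, -1.93, adjusted p = 0.0318), and Kit in the ZnF4 mutant had an adjusted p of 0.0196.

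Over all genes, the ZnF1 calls (10 higher, 18 lower) were 58 and 46 with no filter, 5 and 8 with quantile normalization, 0 and 0 with a sex term (440 and 423 at an unadjusted p under 0.05) and 0 and 0 with 2 genotypes alone (541 and 512), and 0 to 366 and 0 to 146 when 1 library was left out. The ZnF4 calls (184 and 146) were 95 and 76 with a sex term and 359 and 235 with 2 genotypes alone, with 71 lower under no filter, and 0 to 361 and 0 to 230 when 1 library was left out. The direct calls (278 and 215) were 149 and 100 with 2 genotypes alone, with 96 lower under no filter, and 0 to 326 and 0 to 488 when 1 library was left out. Rounding to 0.1 RPKM limits Cd34 and Meis1 most.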
